A study of Homo sapiens with 9 samples.

Results

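The genes described here are 10 immediate early genes outside the AP-1 family: the zinc finger factors *EGR1*, *EGR2* and *EGR3*, the nuclear receptors *NR4A1*, *NR4A2* and *NR4A3*, the cytoskeletal gene *ARC*, and *IER2*, *IER3* and *IER5*. They were taken by symbol from the deposited gene count table, in which all 10 of the 10 symbols stood among 20463 annotated genes, and all 10 passed the filter on low counts. Poly(A) RNA was sequenced from A375, a single established human melanoma line with an activating BRAF mutation, kept in medium with serum. Cells were left untreated (control) or received Salvianolic acid B, a phenolic constituent of the root of Salvia miltiorrhiza that is called SalB here, at 100 µM or 200 µM over 48 h, with 3 libraries in each of the 3 groups. The labels describe the libraries as biological replicates without saying whether they came from separate cultures, so p-values measure the spread between these libraries, and the labels name no vehicle for the control.

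Immediate early genes are switched on within minutes of a growth factor, stress or calcium signal, without new protein synthesis, through ERK, p38 and calcium pathways that act on the factors SRF, the ELK proteins and CREB at their promoters. Their transcripts are short-lived, so a level read long after the stimulus reflects ongoing transcription and decay and not the first pulse. In melanoma with mutant BRAF the ERK pathway is constantly active, and several of these genes are expressed without an acute stimulus. EGR proteins bind GC-rich DNA and have the corepressors NAB1 and NAB2. NR4A proteins are orphan nuclear receptors that bind DNA without a known natural ligand. The IER proteins are small nuclear or membrane-linked regulators of proliferation and survival.

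Promoter sequence of *EGR1*, *EGR2* and *NR4A3* is shown. Among the windows searched, these hold most of the matches to the binding motifs of SRF (the CArG box) and CREB. *EGR1* and *EGR2* have CArG boxes and 2 CREB half-sites each, and *NR4A3* has CREB half-sites alone of these motifs. The *EGR1* and *EGR2* stretches end at the annotated transcript start, the *NR4A3* stretch stops 30 bases before it, and all are read 5′ to 3′ on the gene's strand from RefSeq on GRCh38.p14. They lie at chr5:138465229-138465478 on the plus strand for *EGR1*, at chr10:62816367-62816616 on the minus strand for one of 3 starts of *EGR2*, and at chr9:99821635-99821854 on the plus strand for *NR4A3*. Capitals mark CArG boxes and the CREB half-site TGACG on either strand.
EGR1: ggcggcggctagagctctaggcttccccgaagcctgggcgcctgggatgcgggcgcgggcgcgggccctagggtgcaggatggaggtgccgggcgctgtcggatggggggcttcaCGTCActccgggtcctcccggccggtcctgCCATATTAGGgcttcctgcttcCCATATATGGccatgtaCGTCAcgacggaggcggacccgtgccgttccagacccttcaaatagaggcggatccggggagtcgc
EGR2: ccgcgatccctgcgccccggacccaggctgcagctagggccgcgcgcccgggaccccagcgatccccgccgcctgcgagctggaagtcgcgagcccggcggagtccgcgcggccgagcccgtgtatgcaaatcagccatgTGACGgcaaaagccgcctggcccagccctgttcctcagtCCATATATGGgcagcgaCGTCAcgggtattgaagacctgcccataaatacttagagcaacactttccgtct
NR4A3: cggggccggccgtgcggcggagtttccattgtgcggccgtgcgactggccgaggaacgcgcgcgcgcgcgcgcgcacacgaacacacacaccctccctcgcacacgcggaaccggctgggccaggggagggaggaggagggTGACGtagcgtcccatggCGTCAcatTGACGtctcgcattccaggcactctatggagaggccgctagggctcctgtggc
CArG boxes stand at -105 to -96 and at -83 to -74 from the *EGR1* start, and one stands at -71 to -62 from that *EGR2* start. *NR4A3* has 4 CREB half-sites in the 250 bases before its start, the last of them beyond the printed stretch, at -25 to -21. The search covered 9 such windows of 6 of the genes (*EGR1*, *EGR2*, *NR4A1*, *NR4A3*, *IER2* and *IER5*). Of these windows, 2 had a CArG box and 4 a CREB half-site. No window of *EGR3*, *ARC*, *NR4A2* or *IER3* was searched, so these counts do not cover those genes. Among all 35116 windows of 250 bases in the promoter table used, 1.16% had a CArG box and 21.2% the half-site TGACG. The EGR site GCGNGGGCG, present in 8.42% of all windows, was found in the *EGR1* window at -198 to -190. The ETS core CCGGAA, in 14.5% of all windows, was found once in each of the *IER2* and *IER5* windows and in 1 of the 2 windows of *NR4A1*. Motifs were searched on both strands, the marked ones do not overlap, and a match is a match of letters in these windows only.

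The control libraries held 29658753 to 30063195 counts, those at 100 µM 29996059 to 30629685, and those at 200 µM 27348621 to 28468350. Library 3 at 200 µM stood apart: mitochondrially encoded mRNAs took 4.69% of its counts, against 1.81% to 3.11% in the other 8 libraries. Genes were also split into 8 bins by GC content, and the log2 level of the richest bin minus that of the poorest, set to the average of the untreated libraries, was -0.16 to 0.16 in control, 0.69 to 0.93 at 100 µM, and 0.475, 0.96 and -0.305 in libraries 1, 2 and 3 at 200 µM. Values without library 3 and after a correction for GC content are given beside the results of the 10 genes where they changed a call, and as counts for the other lists. Of the melanocyte markers *SOX10* was high in all libraries and *MITF* was present, whereas *PMEL*, *MLANA* and *TYR* stayed under 1 CPM (counts scaled by TMM to a common library size) throughout; the 10 melanocyte markers summed to 415 to 451 CPM in control, 620 to 632 CPM at 100 µM and 476 to 630 CPM at 200 µM. The 7 leukocyte markers summed to 17.98 to 21.6 CPM in control, 14.05 to 17.9 CPM at 100 µM and 56.8 to 83.6 CPM at 200 µM, nearly all of it *CD68*, whose exons overlap other genes over 85.8% of their length, while *PTPRC*, *CD79A*, *ITGAM* and *LST1* were under 1 CPM and *CD3E* was at 0 in all 9 libraries. The 8 epithelial markers summed to 249.9 to 258 CPM in control, 316 to 349 CPM at 100 µM and 315 to 437 CPM at 200 µM, mostly *KRT18*, with *KRT5* at 0 and *EPCAM*, *KRT19* and *CDH1* under 1 CPM. The 9 fibroblast and endothelial markers summed to 28.8 to 31.7 CPM in control, 53.05 to 56.8 CPM at 100 µM and 36.1 to 41.3 CPM at 200 µM, with *COL1A2* and *CDH5* under 1 CPM. Of the 7 of them that were tested, 4 were called higher at 100 µM against control, beside 18.9% of all genes. *KDR* was the 1 called lower (2.7 against 10.3 CPM on average), beside 18.2%. Among the 4, *PDGFRB* averaged 28.6 CPM at 100 µM against 10.1 CPM in control, and *LUM* 15.4 CPM against 7.0 CPM. At 200 µM against control 3 were higher and 0 lower (1 lower at an unadjusted p under 0.05 in edgeR), beside 19.8% and 17.5%. Between the doses 2 were higher at 200 µM and 5 lower, beside 22.4% and 21.9%. The part of these markers in the results below was not tested, and in bulk RNA fewer cells with a transcript and less transcript per cell cannot be told apart.

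Of the 10 genes, *EGR2*, *NR4A1* and *IER3* were called lower at 100 µM and higher at 200 µM, *NR4A2* was lower and *EGR1* higher at both doses, and the other 5 were called against control at 1 dose or at none. At 100 µM, 5 of the 10 genes were lower than in control and 1 was higher, and at 200 µM 7 were higher and 1 was lower. Between the doses, 9 of the 10 were higher at 200 µM than at 100 µM and 0 were lower (0 also at an unadjusted p under 0.05 in edgeR and in DESeq2). These counts come from edgeR's quasi-likelihood test at an adjusted p under 0.05 over 13968 genes, of which 18.9% were called higher and 18.2% lower at 100 µM, 19.8% and 17.5% at 200 µM, and 22.4% and 21.9% between the doses. In either direction 37.1% of all genes were called at 100 µM, 37.3% at 200 µM and 44.4% between the doses. The median log2 fold change of the 10 genes was -0.71 at 100 µM against control, 0.79 at 200 µM against control and 1.45 between the doses, beside medians over all genes of -0.012, 0.003 and -0.006. The same control libraries enter both comparisons with control.

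**Figure D1:**
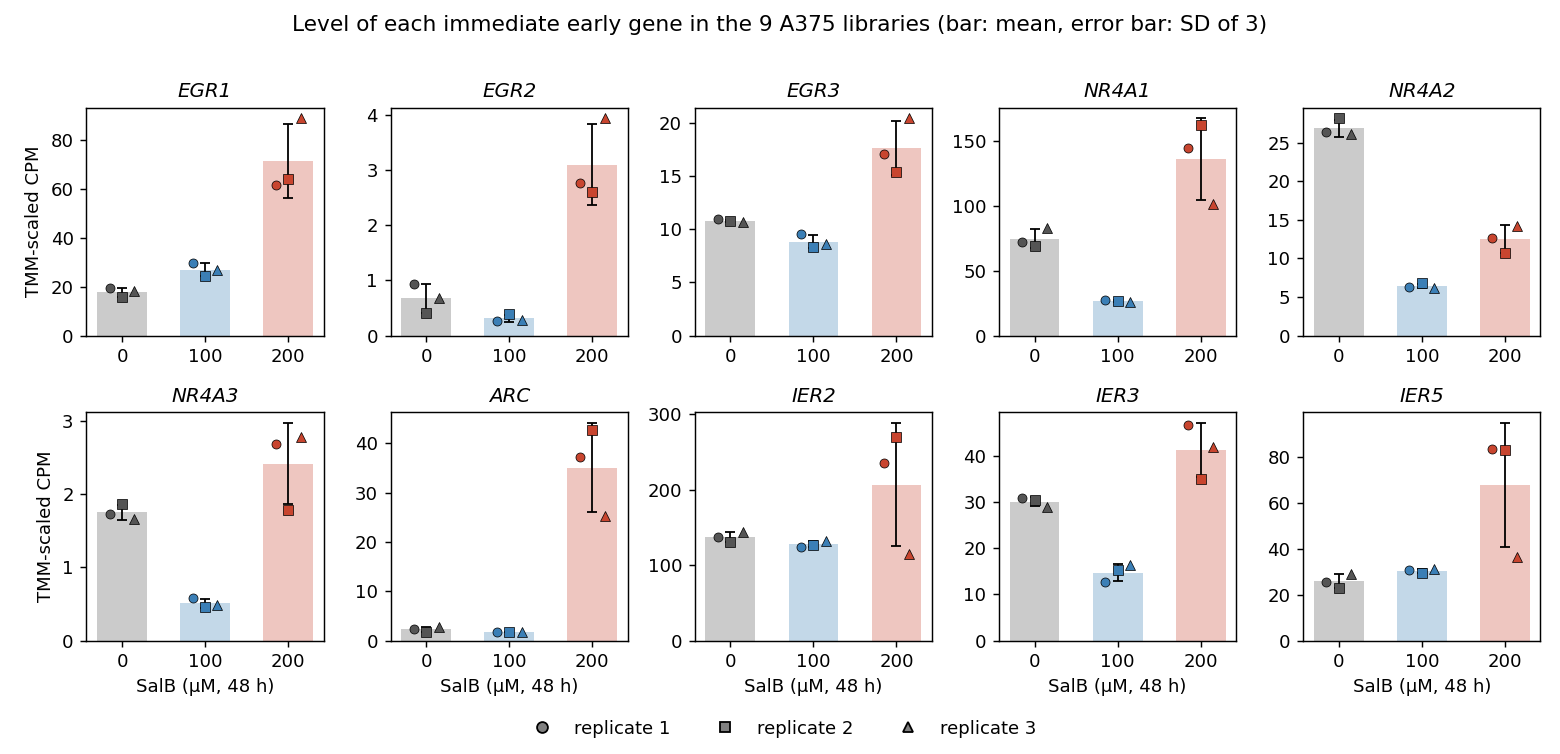
TMM-scaled CPM of the 10 genes in each library by SalB dose (0, 100 and 200 µM), with bars for the mean and error bars for the SD of 3 libraries. The means of *EGR2*, *EGR3*, *NR4A1*, *NR4A3*, *ARC*, *IER2* and *IER3* are lowest at 100 µM and highest at 200 µM, and not all of these differences were called. The triangle of library 3 at 200 µM lies far below the other 2 for *IER2* and *IER5*.

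*EGR1* (ENSG00000120738, protein-coding, GRCh38 chromosome 5, 138465490 to 138469315) encodes the founding factor of its family, a direct target of SRF and ELK proteins under ERK signalling. It had 19.4, 15.7 and 18.3 CPM in the control libraries, 29.6, 24.4 and 26.9 CPM at 100 µM, and 61.8, 64.0 and 88.9 CPM at 200 µM. The 3 groups did not overlap, and the level was higher at each dose than at the one below. *EGR1* rose 4.02-fold at 200 µM against control, a log2 fold change of 2.01 ± 0.16 (SE; edgeR adjusted p = 2.94e-05), and 2.65-fold at 200 µM against 100 µM (1.41 ± 0.16, adjusted p = 0.000115). At 100 µM it rose 1.515-fold against control (0.60 ± 0.16, adjusted p = 0.0158). That last call was lost without control replicate 2 (0.52, adjusted p = 0.0684), without 100 µM replicate 1 (0.525, adjusted p = 0.0648) and after GC correction (0.385, adjusted p = 0.163). *EGR1* was the only one of the 10 genes called higher at 100 µM.

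*EGR2* (ENSG00000122877, protein-coding, chromosome 10, 62811996 to 62919900), a factor best known from myelinating Schwann cells and from T cell anergy, was near the lower limit of these libraries. Its raw counts were 27, 12 and 20 in control, 8, 12 and 9 at 100 µM, and 76, 73 and 99 at 200 µM. In CPM the control libraries held 0.413 to 0.936, those at 100 µM 0.257 to 0.389 and those at 200 µM 2.60 to 3.93, with no overlap between the groups. *EGR2* rose 4.56-fold at 200 µM against control (2.19 ± 0.32, edgeR adjusted p = 0.000833) and 9.77-fold at 200 µM against 100 µM (3.29 ± 0.35, adjusted p = 8.77e-05). At 100 µM it fell 2.14-fold against control (-1.10 ± 0.36, adjusted p = 0.0409). The call at 100 µM rests on few counts and ended without control replicate 1 or 3, without any 1 of the 3 libraries at 100 µM, or without 200 µM replicate 1, with adjusted p between 0.0607 and 0.153.

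*EGR3* (ENSG00000179388, protein-coding, chromosome 8, 22687659 to 22693302), which calcium and calcineurin signalling induce in lymphocytes, had 10.9, 10.75 and 10.7 CPM in control, 9.51, 8.37 and 8.62 CPM at 100 µM, and 17.1, 15.35 and 20.4 CPM at 200 µM. All 3 libraries at 200 µM stood above all others, and all 3 at 100 µM stood below control. *EGR3* rose 1.63-fold at 200 µM against control (0.71 ± 0.12, edgeR adjusted p = 0.0021) and 1.99-fold against 100 µM (1.00 ± 0.12, adjusted p = 0.00023). At 100 µM its log2 difference from control was -0.29 ± 0.12 (adjusted p = 0.0985), which passed without 200 µM replicate 3 (-0.265, adjusted p = 0.0311), after GC correction (-0.43, adjusted p = 0.0371) and when these groups were fitted by themselves (-0.28, adjusted p = 0.0263). Without library 3 at 200 µM, *EGR1*, *EGR2* and *EGR3* kept their calls at 200 µM against control, with log2 fold changes of 1.84, 1.996 and 0.60.

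The make-up of the EGR family was compared on a scale per exon length, as CPM per kb. *EGR1* made up 70.1% ± 1.58 of the summed EGR level in control, 81.8% ± 0.758 at 100 µM and 83.5% ± 1.17 at 200 µM (SD, n = 3). The share of *EGR3* was 27.6% ± 2.23 in control, 17.35% ± 0.515 at 100 µM and 13.4% ± 1.15 at 200 µM, and *EGR2* stayed at 3.06% or less on average in each group. The summed EGR level was 8.08 ± 0.678 CPM per kb in control, 10.5 ± 0.937 at 100 µM and 27.3 ± 5.48 at 200 µM. In libraries 1 and 2 at 200 µM the share of *EGR1* was 82.2% and 84.1%, and in library 3 it was 84.3%.

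*NR4A1* (ENSG00000123358, protein-coding, chromosome 12, 52022832 to 52059507) encodes NUR77, a nuclear receptor induced by mitogens and apoptotic stimuli, and was the most abundant of its family. It had 72.2, 69.1 and 82.8 CPM in control, 27.2, 26.5 and 25.7 CPM at 100 µM, and 145, 162 and 101 CPM at 200 µM. The control libraries lay between the doses and no groups overlapped. *NR4A1* fell 2.82-fold at 100 µM (-1.50 ± 0.16, edgeR adjusted p = 0.000182) and rose 1.82-fold at 200 µM (0.865 ± 0.16, adjusted p = 0.00262), both against control. Between the doses it was 5.14-fold higher at 200 µM (2.36 ± 0.17, adjusted p = 8.04e-06). Library 3 at 200 µM held 0.660 times the mean of the other 2, and without it the rise against control was 1.05 on the log2 scale (adjusted p = 4.05e-06). Exons of *NR4A1* share 10.3% of their length with a gene on the other strand, so reads could be shared where the counting did not use strand.

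*NR4A2* (ENSG00000153234, protein-coding, chromosome 2, 156324432 to 156342348), which encodes NURR1, a receptor needed for dopamine neurons, had 26.4, 28.1 and 26.1 CPM in control, 6.36, 6.78 and 6.16 CPM at 100 µM, and 12.6, 10.7 and 14.2 CPM at 200 µM. It was the only one of the 10 genes whose libraries at both doses lay below all control libraries and that was called lower at 200 µM. *NR4A2* fell 4.18-fold at 100 µM (-2.06 ± 0.12, edgeR adjusted p = 8.55e-06) and 2.15-fold at 200 µM (-1.10 ± 0.12, adjusted p = 0.000151) against control. The higher dose held 1.945 times the level of the lower one (0.96 ± 0.12, adjusted p = 0.000247), so the fall was smaller at 200 µM than at 100 µM. No alternative setting ended any of these 3 calls.

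*NR4A3* (ENSG00000119508, protein-coding, chromosome 9, 99821855 to 99866891), which encodes NOR1, a receptor with overlapping roles in leukemia suppression and vascular cells, was scarce. It had 1.73, 1.86 and 1.65 CPM in control, 0.578, 0.454 and 0.486 CPM at 100 µM, and 2.68, 1.78 and 2.78 CPM at 200 µM. One library at 200 µM lay within the range of the control libraries. *NR4A3* fell 3.43-fold at 100 µM against control (-1.78 ± 0.24, edgeR adjusted p = 0.000635) and was 4.73-fold higher at 200 µM than at 100 µM (2.24 ± 0.24, adjusted p = 9.76e-05). At 200 µM its log2 difference from control was 0.46 ± 0.22 (adjusted p = 0.132), and it passed without 200 µM replicate 2 (0.64, adjusted p = 0.0439) but not without replicate 3 (0.36, adjusted p = 0.253).

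Per kb of exon, *NR4A1* made up 59.1% ± 3.14 of the summed NR4A level in control, 68.1% ± 0.835 at 100 µM and 83.4% ± 5.425 at 200 µM (SD, n = 3). *NR4A2* made up 39.3% ± 2.99 in control, 30.4% ± 1.01 at 100 µM and 14.8% ± 4.77 at 200 µM, and *NR4A3* made up between 1.504% and 1.797% on average. The shares of *NR4A1* did not overlap between any groups. The summed NR4A level was 17.3 ± 0.770 CPM per kb in control, 5.33 ± 0.156 at 100 µM and 22.2 ± 3.82 at 200 µM. Libraries 1 and 2 at 200 µM had *NR4A1* shares of 84.6% and 88.2%, and library 3 had 77.5%.

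*ARC* (ENSG00000198576, protein-coding, chromosome 8, 142611044 to 142614472) encodes a capsid-forming protein that controls glutamate receptor traffic at synapses and is a standard marker of recent neuronal activity. It had 2.39, 1.79 and 2.70 CPM in control, 1.73, 1.78 and 1.75 CPM at 100 µM, and 37.3, 42.8 and 25.2 CPM at 200 µM. All 3 libraries at 200 µM lay far above the rest, and the 3 at 100 µM lay just below the lowest control library. *ARC* rose 15.3-fold at 200 µM against control (3.93 ± 0.23, edgeR adjusted p = 5.08e-06) and 19.9-fold against 100 µM (4.32 ± 0.23, adjusted p = 1.89e-06), in both comparisons the largest fold among the 10 genes. Over all alternative settings its log2 fold change at 200 µM against control stayed between 3.76 and 4.14. At 100 µM the difference from control was -0.385 ± 0.23 (adjusted p = 0.224), and it passed after GC correction (-0.80, adjusted p = 0.000485). The GC content of *ARC* was 66.8%, the highest of the 10 genes.

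**Figure D2:**
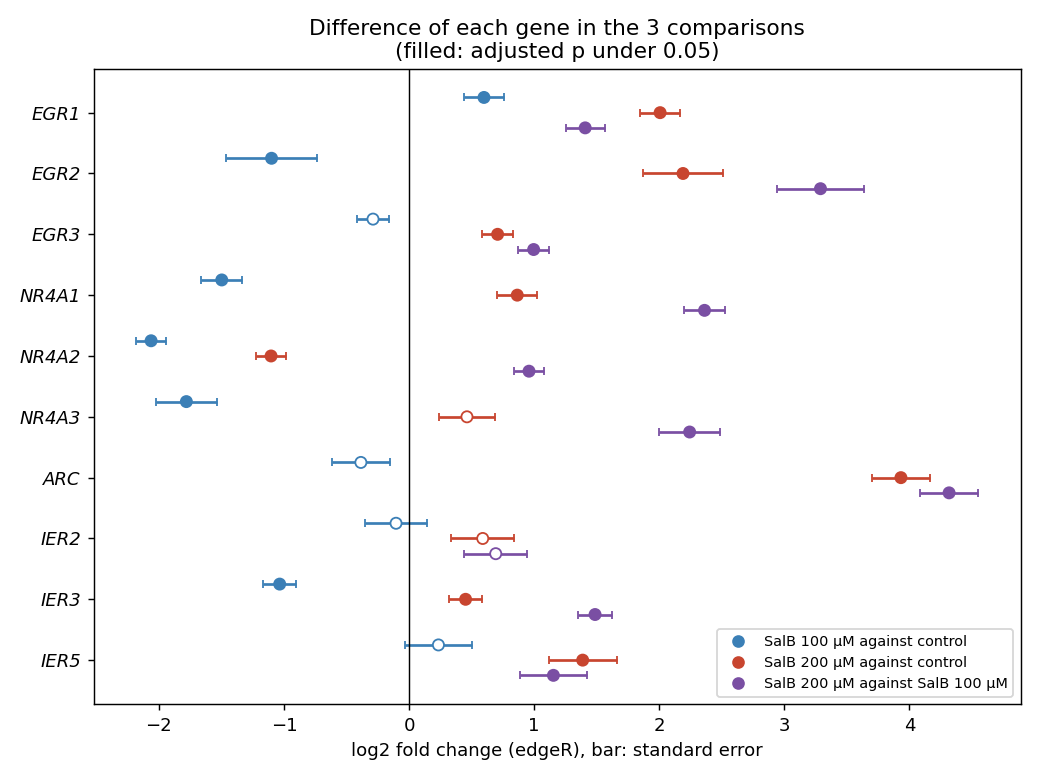
Log2 fold change of each gene in the 3 comparisons (edgeR), with standard errors as bars and filled points at an adjusted p under 0.05. The points for 200 µM against 100 µM all lie above 0, up to 4.32 for *ARC*, and the points for 100 µM against control lie below 0 for 8 of the genes.

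*IER2* (ENSG00000160888, protein-coding, chromosome 19, 13150415 to 13154908), a nuclear protein of the growth factor response, had the highest level per kb of the 10 genes in every group. It had 137, 130.2 and 144 CPM in control, 124, 127 and 132 CPM at 100 µM, and 236, 269 and 114 CPM at 200 µM. Libraries 1 and 2 at 200 µM lay above all others and library 3 lay below all others. The log2 difference at 200 µM was 0.59 ± 0.25 against control (edgeR adjusted p = 0.0967) and 0.69 ± 0.25 against 100 µM (adjusted p = 0.0501), and neither was called. Without library 3, *IER2* was called higher in both, at 0.89 against control (adjusted p = 4.05e-06) and at 0.97 against 100 µM (adjusted p = 1.5e-06). DESeq2 (0.69, adjusted p = 0.0189) and GC correction (0.88, adjusted p = 0.000856) also called the difference between the doses, and GC correction called that against control (0.42, adjusted p = 0.0419). At 100 µM the difference from control was -0.10 ± 0.25 (adjusted p = 0.775), or -0.46 after GC correction (adjusted p = 0.033). Exons of *IER2* share 30.8% of their length with a gene on the other strand, so its values are uncertain.

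*IER3* (ENSG00000137331, protein-coding, chromosome 6, 30743199 to 30744554), also called IEX-1, is a target of NF-kB and p53 that modulates apoptosis and prolongs ERK activity. It had 30.9, 30.35 and 28.9 CPM in control, 12.6, 15.25 and 16.2 CPM at 100 µM, and 46.6, 35.0 and 41.9 CPM at 200 µM, with no overlap between groups. *IER3* fell 2.05-fold at 100 µM against control (-1.03 ± 0.13, edgeR adjusted p = 0.000456) and was 2.80-fold higher at 200 µM than at 100 µM (1.49 ± 0.13, adjusted p = 3.03e-05). At 200 µM it rose 1.37-fold against control (0.45 ± 0.13, adjusted p = 0.0229). The call at 200 µM was lost without any 1 of the 3 control libraries, without 200 µM replicate 1 (adjusted p between 0.0607 and 0.0795), and after GC correction (0.38, adjusted p = 0.107), whereas the fall at 100 µM kept its call in all alternatives. An antisense gene, *IER3-AS1*, overlaps 26.5% of the exon length of *IER3*, and reads of the 2 cannot be told apart if strand was not used.

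*IER5* (ENSG00000162783, protein-coding, chromosome 1, 181088712 to 181092899), a p53 and HSF1 target that brings the phosphatase PP2A to HSF1, had 25.5, 22.9 and 29.2 CPM in control, 30.5, 29.4 and 31.25 CPM at 100 µM, and 83.3, 83.1 and 36.5 CPM at 200 µM. All libraries at 200 µM were above all others, but library 3 lay close to those at 100 µM. *IER5* rose 2.62-fold at 200 µM against control (1.39 ± 0.27, edgeR adjusted p = 0.00381) and 2.225-fold against 100 µM (1.15 ± 0.27, adjusted p = 0.00766). Without library 3 the log2 fold changes were 1.70 (adjusted p = 2.48e-07) and 1.44 (adjusted p = 4.33e-07). At 100 µM the difference from control was 0.235 ± 0.27 (adjusted p = 0.528), and it was called without 200 µM replicate 3 (0.26, adjusted p = 0.0238).

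Library 3 at 200 µM did not shift the genes one way. It was above both other libraries of its group for 5 genes, the 3 *EGR* genes with *NR4A2* and *NR4A3*, and below both for 4, *NR4A1*, *ARC*, *IER2* and *IER5*. Its ratio to the mean of the other 2 libraries was 1.41 for *EGR1* and 1.47 for *EGR2*, and 0.453 for *IER2* and 0.438 for *IER5*. Without it, 8 of the 10 genes were called higher and 1 lower at 200 µM against control, all 10 were higher at 200 µM than at 100 µM, and 2 were higher and 6 lower at 100 µM against control. Over all 14153 genes tested in that fit, 27.9% were called higher and 25.9% lower at 200 µM against control, 25.8% higher between the doses, and 28.7% higher and 27.5% lower at 100 µM, so calls were more frequent there across the whole table. GC correction left 8 genes lower at 100 µM and ended the call of *EGR1* there, with log2 fold changes of -1.82 for *NR4A1* and -1.325 for *IER3*. At 200 µM it gave 7 higher and 1 lower, with *IER2* added and *IER3* lost. Under GC correction 19.3% of all genes were lower at 100 µM, and 24.8% were higher and 22.4% lower at 200 µM. Both changes together gave 1 higher (*EGR1*, 0.39, adjusted p = 0.00105) and 8 lower at 100 µM, where 26.9% and 27.7% of all genes were called.

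**Figure D3:**
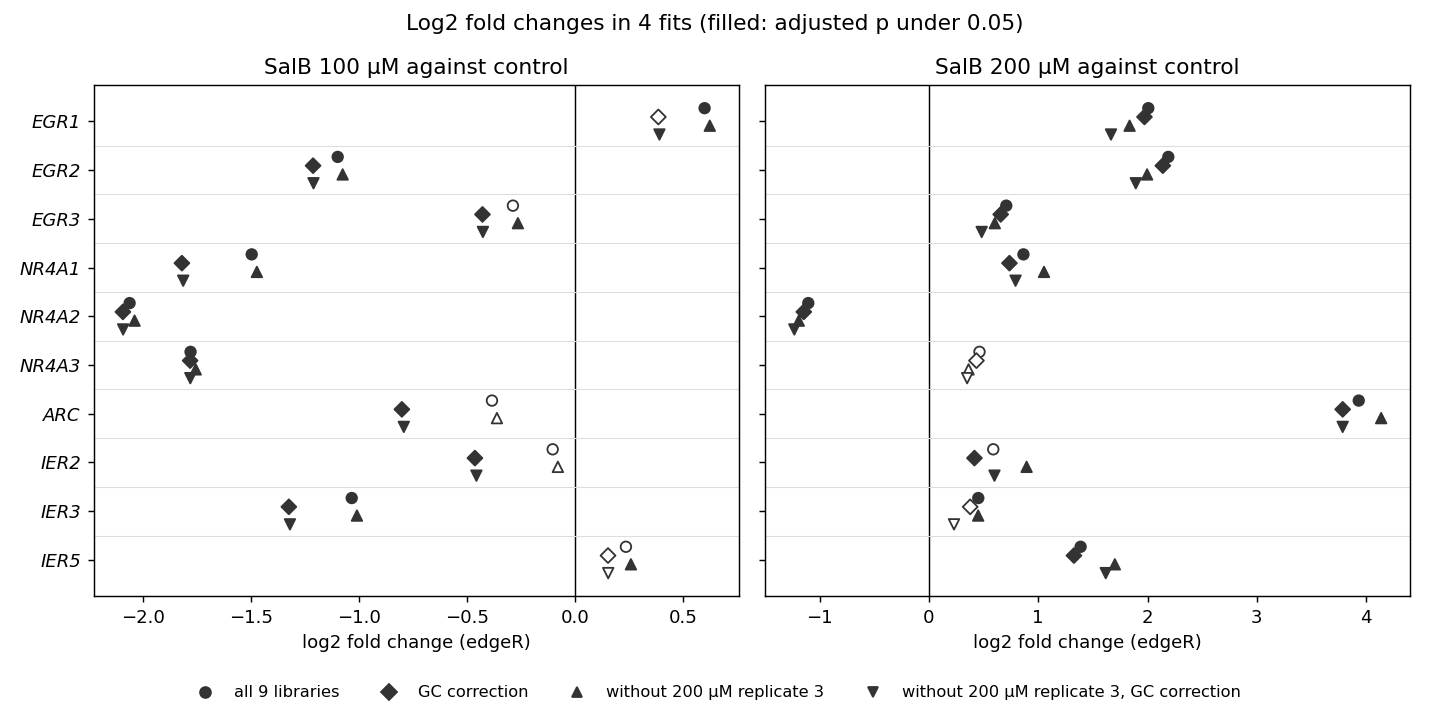
Log2 fold change of each gene against control at 100 µM (left) and 200 µM (right) in 4 fits: all 9 libraries, GC correction, without 200 µM replicate 3, and both changes together. Filled points have an adjusted p under 0.05, and no point crosses 0 between the fits.

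Levels between genes were ordered per kb of exon within each group. In control the order was *IER2* (44.7 ± 2.27 CPM per kb), *IER3* (22.2 ± 0.761), *NR4A1* (10.2 ± 0.986), *NR4A2* (6.78 ± 0.279), *IER5* (6.17 ± 0.756), *EGR1* (5.67 ± 0.594), *EGR3* (2.22 ± 0.0231), *ARC* (0.767 ± 0.155), *NR4A3* (0.277 ± 0.0164) and *EGR2* (0.183 ± 0.0708). The ranges of *NR4A2* and *IER5*, and of *IER5* and *EGR1*, overlapped, and no other neighbours did. At 100 µM *EGR1* came at rank 3 with 8.595 ± 0.836 CPM per kb, in a range that overlapped that of *IER3* (10.8 ± 1.41), and *NR4A2* came at rank 7 with 1.62 ± 0.0801. At 200 µM *IER2* (67.2 ± 26.5) and *IER3* (30.35 ± 4.305) again came first, and *IER3*, *EGR1* (22.8 ± 4.797), *NR4A1* (18.6 ± 4.30), *IER5* (16.15 ± 6.44) and *ARC* (11.7 ± 3.01) each overlapped their neighbour. *ARC* was at rank 8 in control and at 100 µM, and at rank 6 at 200 µM. Without library 3 the order at 200 µM differed in 1 place, with *NR4A1* (21.0 CPM per kb) ahead of *EGR1* (20.05).

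For 3 of the genes the transcripts with the most similar course over the 9 libraries were sought among 12701 other genes with a mean of at least 1 CPM, by the root mean square difference of log2 CPM after centring each gene on its own mean. *EGR1* was closest to *ADAMTSL5* (0.11 log2 units), *SLIT2* (0.13) and *FN1* (0.15), where the median over all genes was 0.91. *FN1*, which encodes fibronectin, averaged 206 CPM in control, 259.5 CPM at 100 µM and 766 CPM at 200 µM. *NR4A1* was closest to *MAFF* (0.15), a small MAF factor of the early response, *NDRG1* (0.16) and *TM4SF19* (0.18), beside a median of 1.02. *IER3* was closest to *PPTC7* (0.07), a mitochondrial phosphatase, *CD109* (0.09) and *CPEB4* (0.10), beside a median of 0.70. *PPTC7* averaged 83.0 CPM in control, 44.4 CPM at 100 µM and 121 CPM at 200 µM.

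A list of 44 other early response genes was set beside the 10, of which 42 were tested. At 100 µM 20 were lower than in control and 5 were higher, with a median log2 fold change of -0.265, beside 18.2% and 18.9% of all genes. At 200 µM 24 were higher than in control and 6 were lower, with a median of 0.71, beside 19.8% and 17.5%. Between the doses 32 were higher at 200 µM and 4 were lower, with a median of 1.07, beside 22.4% and 21.9%. Without 200 µM replicate 3, 29 were higher and 6 lower at 200 µM, beside 27.9% and 25.9% of all genes in that fit. Between the doses 33 were then higher and 5 lower, beside 25.8% and 28.3%. After GC correction 26 were higher and 7 lower at 200 µM, beside 24.8% and 22.4% of all genes. It left 25 lower at 100 µM, beside 19.3%. The 5 with the smallest p at 100 µM against control were *MCL1* (-0.96 ± 0.07), which encodes an antiapoptotic BCL2 protein, *CCN1* (1.13 ± 0.085), a matricellular gene, *NFKBIZ* (-1.45 ± 0.11), a nuclear IkB protein, *KLF6* (-0.915 ± 0.08), a Kruppel-like factor, and *PPP1R15A* (-0.86 ± 0.08), a stress phosphatase subunit. At 200 µM against control they were *KLF2* (3.78 ± 0.105) and *KLF4* (3.15 ± 0.15), Kruppel-like factors, *CCN1* (2.72 ± 0.09), *PPP1R15A* (1.87 ± 0.08) and *ID2* (2.79 ± 0.13), an inhibitor of helix-loop-helix factors. *KLF4* averaged 7.01 ± 1.165 CPM in control, 3.20 ± 0.146 CPM at 100 µM and 62.35 ± 7.54 CPM at 200 µM. Between the doses *HBEGF*, which encodes an EGF receptor ligand, was among the 5 (2.70 ± 0.11), with *KLF2*, *PPP1R15A*, *KLF4* and *ID2*. The number higher at 100 µM was 3 without control replicate 1 or 2, and without 100 µM replicate 1 or 3. It was also 3 after GC correction, beside 19.5% of all genes. The 6 genes lower at 200 µM included *ID1* (-1.76 ± 0.14) and *ID3* (-2.62 ± 0.305), named after their values were seen.

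**Figure D4:**
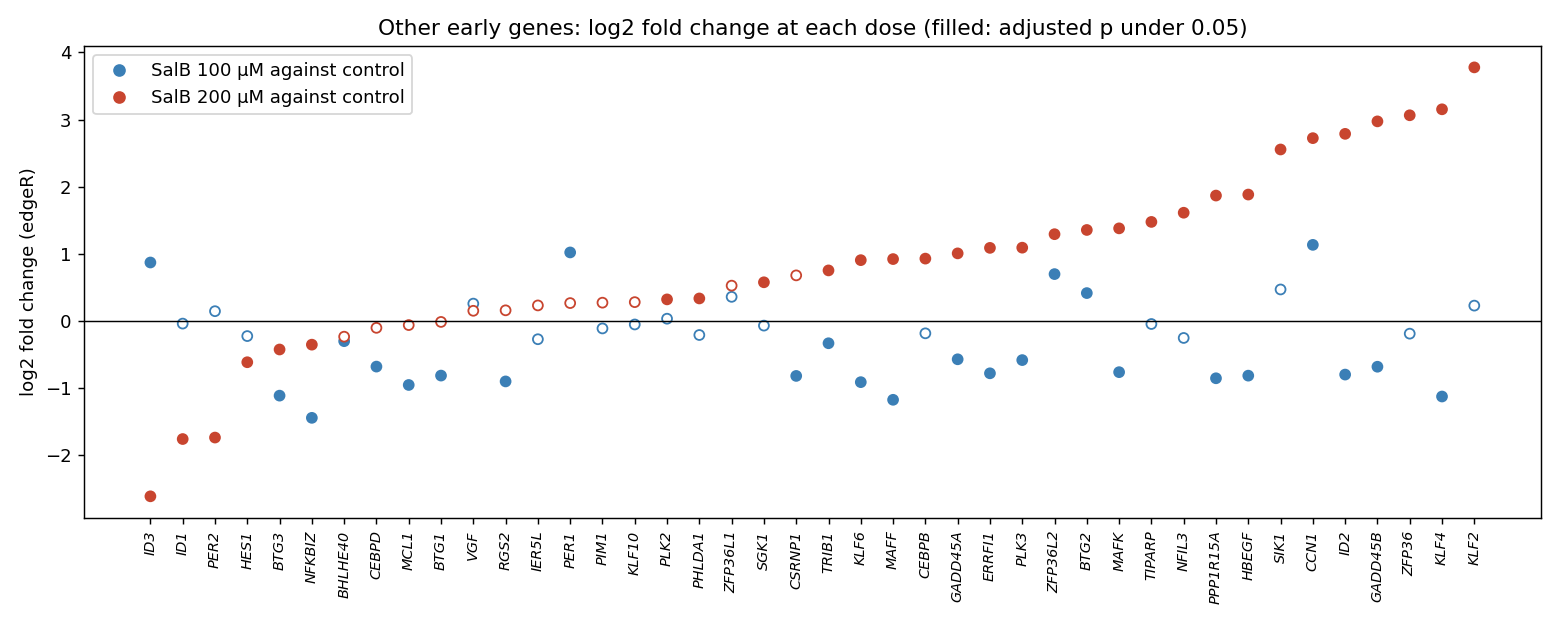
Log2 fold change (edgeR) of the 42 tested early response genes outside the set, at 100 µM and at 200 µM against control, in order of the value at 200 µM. Filled points have an adjusted p under 0.05; 24 genes were higher at 200 µM and 20 were lower at 100 µM.

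Components that carry signals to early gene promoters were measured as a list of 22, from the RAF and ERK kinases to SRF, ELK, MRTF and CREB factors. At 100 µM 8 were higher and 4 were lower than in control, beside 18.9% and 18.2% of all genes. At 200 µM 7 were higher and 1 was lower, beside 19.8% and 17.5% of all genes. *CREM*, a CREB family member whose short form represses cAMP-responsive genes and is itself early-induced, fell by 1.66 ± 0.08 on the log2 scale at 100 µM, to 36.15 ± 0.967 CPM against 114 ± 1.215 CPM in control. It also fell at 200 µM against control (-0.40 ± 0.08), and was higher at 200 µM than at 100 µM (1.26 ± 0.08). *RPS6KA5*, the CREB kinase MSK1, fell at 100 µM (-1.04 ± 0.13) and was higher at 200 µM than at 100 µM (1.17 ± 0.13), as was *MAP2K1*, which encodes MEK1 (-0.82 ± 0.10 and 0.695 ± 0.10, with 11.5% of its exon length shared with other genes). Among the 8 genes higher at 100 µM, *MRTFA*, an actin-regulated coactivator of SRF, rose by 0.84 ± 0.11, and *CRTC3*, a coactivator of CREB, by 0.73 ± 0.105. *CRTC3* (0.78 ± 0.11), *CRTC2* (0.57 ± 0.11), another CREB coactivator, and *MAPK3* (0.67 ± 0.11), a kinase gene of the ERK pathway, rose at 200 µM against control, and *MAPK3* (0.54 ± 0.11) and *CRTC2* (0.67 ± 0.11) were also higher at 100 µM. The number higher at 100 µM was 4 or 5 without any 1 library of control or 100 µM. It was 4 after GC correction, beside 19.5% of all genes. The number lower at 100 µM was 7 without 200 µM replicate 3, beside 27.5% of all genes. At 200 µM, 12 were higher and 4 lower without library 3, beside 27.9% and 25.9% of all genes in that fit. After GC correction 14 were higher and 2 lower at 200 µM, beside 24.8% and 22.4% of all genes.

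Of 11 partners and textbook targets of EGR factors, 7 were higher and 1 was lower at 200 µM against control, beside 19.8% and 17.5% of all genes. At 100 µM 4 were higher and 2 were lower, beside 18.9% and 18.2% of all genes. Between the doses 6 were higher and 0 lower (0 lower also at an unadjusted p under 0.05 in edgeR), beside 22.4% and 21.9%. *PDGFA*, a growth factor gene bound by EGR1, rose by 1.31 ± 0.11 at 200 µM, to 25.2 ± 0.690 CPM against 10.2 ± 0.142 CPM in control. *ICAM1*, a leukocyte adhesion receptor gene whose exons share 23.6% of their length with other genes, went the other way. It fell by 0.99 ± 0.09 at 100 µM and by 0.315 ± 0.09 at 200 µM against control, as the 1 gene of the list that was lower at 200 µM, and was higher at 200 µM than at 100 µM (0.67 ± 0.09). At 200 µM against control *SPHK1*, a sphingosine kinase, rose by 1.45 ± 0.23, *TGFB1*, a cytokine gene, by 0.94 ± 0.10, *CD44*, a hyaluronan receptor, by 0.81 ± 0.10, and *MMP14*, a membrane protease, by 0.795 ± 0.13. At 100 µM *TGFB1* (0.76 ± 0.10), *CD44* (0.60 ± 0.10) and *PDGFB* (1.05 ± 0.26), a growth factor gene, were higher than in control, *PDGFB* not without control replicate 1 (0.94, adjusted p = 0.0513). *NAB1*, an EGR corepressor, fell at 100 µM (-0.85 ± 0.15) and was higher at 200 µM than at 100 µM (0.53 ± 0.15), a call lost without 100 µM replicate 1 (0.49, adjusted p = 0.0634). The number higher at 100 µM was 2 without control replicate 1. It was also 2 after GC correction, beside 19.5% of all genes. GC correction ended the call of *TGFB1* there (0.37, edgeR adjusted p = 0.119). The number lower at 100 µM was 4 without 200 µM replicate 3, beside 27.5% of all genes, and 5 after GC correction, beside 19.3%. The count of 1 lower at 200 µM was 0 without any 1 control library or 200 µM replicate 1. It was 2 without 200 µM replicate 3, beside 25.9% of all genes, and 2 after GC correction, beside 22.4%.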

How the data were processed

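The 9 mRNA libraries of A375 cells were analysed by the groups in their labels. The whole-number read counts per gene were deposited by the authors without normalization, and the submitters' processing notes name featureCounts, HISAT2, FastQC and DESeq2, and the build GRCh38. The tools' versions, the annotation release and the strand setting were not stated in what was used here. Rows for 2142 assembled transcripts without an Ensembl identifier were left out.

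Testing used edgeR 4.0.16 under R 4.3.3: filterByExpr (13968 genes kept), TMM scaling, and a robust quasi-likelihood fit of all 9 libraries with a term for group (6 residual degrees of freedom). P-values were adjusted by Benjamini-Hochberg over all genes in each comparison and called at 0.05. A standard error is |log2 fold change| over the root of F. CPM use TMM-scaled library sizes, and per-kb levels use the union of GENCODE v29 exons. The model was tested on simulated counts with a fixed dispersion, without an outlying library or a trend on GC content. Those features of the data were not covered by that test. Alternatives included DESeq2 1.42.0, other scalings and filters, a replicate block, each library left out, and an offset removing each library's trend on transcript GC content (known for 99.3% of genes). All within-group library pairs differed beyond sampling noise (chi-square per degree of freedom 7.22 to 148). Named genes were the 10, up to 5 with the smallest p per list and comparison, and the 3 most similar transcripts of *EGR1*, *NR4A1* and *IER3*. The genes and lists were chosen with earlier results of these data known. One gene that the rule names is not reported here. An exact permutation test of 3 against 3 libraries cannot reach 0.05, so p-values come from the model alone.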

Additional observations from a re-analysis of the deposited data

How the results depend on the processing

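Over 19 alternatives, 30 gene and comparison values were refitted 570 times: 528 kept their direction and side of the threshold, 20 lost a call, 22 gained one and 0 reversed, and 20 of the 30 values kept their call throughout. In the fit of the 2 groups alone, 2 genes of the set were higher at 100 µM, against 1 in the full fit, and over all genes 4098 were higher and 4319 lower, against 2640 and 2541. After GC correction the counts of the set at 100 µM were 0 higher and 8 lower, and with the replicate block added 0 higher. Without 200 µM replicate 3 and with GC correction, an alternative chosen after seeing the data, 8 of the set and 3920 of all genes were lower at 100 µM, and 3861 of all genes at 200 µM. With each library left out in turn, the set had 0 to 2 higher at 100 µM (2 without 200 µM replicate 3, 0 without control replicate 2 or 100 µM replicate 1), and all genes 1837 to 4056 higher and 1613 to 3887 lower at 100 µM. At 200 µM against control, all genes had 2027 to 3947 higher and 1692 to 3667 lower, and between the doses 2358 to 3657 higher and 2402 to 4011 lower. The cause of these changes was not tested. No pairing of the libraries by the replicate numbers in the titles was visible. Deviations of same-numbered libraries correlated between -0.16 and 0.03 over 9 pairs, and the own number was highest in 2 of 18 cases. These correlations cannot show whether the libraries were paired by design. The replicate block left 4 of the set lower at 100 µM and 6 higher at 200 µM, with *EGR2* at an adjusted p of 0.0778 and *IER3* at 0.053. Group means of the 10 genes on the DESeq2 scale departed from those in CPM by at most 0.007 in log2. Low counts limit *EGR2* (8 to 99 counts per library) and *NR4A3* (14 to 74).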

Other observations

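AU-rich elements are the sequences through which many early transcripts are degraded. Factors that bind them were tested together with subunits of RNA decay enzymes, as a list of 10. *ZFP36*, which encodes the decay factor tristetraprolin and is itself an early gene, rose by 3.06 ± 0.15 on the log2 scale at 200 µM, to 55.4 ± 10.5 CPM against 6.62 ± 0.611 CPM in control (edgeR adjusted p = 2.2e-06). *ZFP36L2* rose at both doses, by 1.29 ± 0.11 at 200 µM and by 0.70 ± 0.11 at 100 µM. *KHSRP* (0.96 ± 0.07), *HNRNPD* (0.625 ± 0.09) and *ELAVL1* (0.40 ± 0.07), which bind AU-rich RNA, rose at 100 µM against control and were lower at 200 µM than at 100 µM (-0.97 ± 0.07, -0.81 ± 0.09 and -0.64 ± 0.07). The list had 3 higher and 1 lower at 200 µM, where 19.8% and 17.5% of all genes were called. At 100 µM the list had 5 higher and 1 lower, beside 18.9% and 18.2% of all genes. The 1 lower at 200 µM, *ELAVL1* (-0.24 ± 0.07), was not called without any 1 control library. Without 200 µM replicate 3, 3 were lower at 200 µM, beside 25.9% of all genes in that fit. The 1 lower at 100 µM was 0 without control replicate 2 or 100 µM replicate 1 or 3. It was 2 without 200 µM replicate 3, beside 27.5% of all genes.

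Retinoid X receptors are dimer partners of NR4A1 and NR4A2. Of 7 partners of NR4A and IER proteins, 1 was higher and 1 lower at 100 µM, beside 18.9% and 18.2% of all genes. At 200 µM *RXRG* alone was called, where 37.3% of all genes were called in either direction. Without 200 µM replicate 3, 3 were higher and 1 lower there, beside 27.9% and 25.9% of all genes in that fit. After GC correction 2 were higher, beside 24.8% of all genes. Leaving out 200 µM replicate 2 also gave 3 higher. *RXRG* averaged 15.4 ± 1.765 CPM in control, 3.03 ± 0.277 CPM at 100 µM and 26.4 ± 2.71 CPM at 200 µM. It fell by 2.34 ± 0.14 on the log2 scale at 100 µM (edgeR adjusted p = 8.5e-06) and rose by 0.78 ± 0.13 at 200 µM (adjusted p = 0.0015), both against control. *RXRA* rose at 100 µM against control (0.97 ± 0.20, adjusted p = 0.0053) and was lower at 200 µM than at 100 µM (-1.06 ± 0.20, adjusted p = 0.0026).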
